A study of Mus musculus with 2 samples.

Results

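Type I interferon-induced genes are the genes that cells switch on when interferon alpha or beta reaches their surface, and 39 of them, picked by symbol from the annotation of the array, are described here in epididymal fat. Of these, 37 had a probe set that named the gene alone, among 22180 genes measured on the same arrays. Ifi44 had no probe set under its name, and the probe set of Oas1a also names its near copy Oas1g, so both were kept out of the counts. Each of the others was represented by its brightest probe set by the mean of both arrays; 35 had a single one and 2 (Sp100 and Ifi35) had several.

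The RNA came from males of the strain A/J and of the consomic strain A/J-12SM, which carries chromosome 12 of SM/J in an A/J background. Both groups ate a high-fat diet for 7 weeks from 6 weeks of age and were killed after a fast of 4 h. The RNA of 3 mice per strain was combined on 1 array, so there are 2 arrays in all and the spread between mice was not measured. Every difference below is A/J-12SM minus A/J in log2 units, without a p-value, an error or a replicate check, and the words higher and lower compare these 2 arrays only.

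Type I interferons bind the receptor Ifnar1 and Ifnar2, and the kinases Jak1 and Tyk2 then pass the signal to Stat2. Stat2 and Irf9 are parts of a complex that enters the nucleus and binds the interferon-stimulated response element in front of the target genes. The products sense foreign RNA, block translation and virus assembly, and tune the pathway itself. In fat, resident macrophages as well as adipocytes are known to respond to interferon.

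The response element is shown here in the promoters, because it is the sequence that this complex binds. The members were not chosen by a search for it, but they were picked as known interferon-induced genes. A share above that of all genes is therefore no result of these arrays. Its core is GAAANNGAAA, or TTTCNNTTTC on the opposite strand. It was searched in windows from 250 bases before to 50 bases after the RefSeq start sites available (GRCm38.p6), which leave out some gene starts. Of the 29 members with a window in the table, 13 (44.8%) held the core, against 3.99% of all 27025 genes with a window. The longer element AGTTTCNNTTTC, or GAAANNGAAACT, which contains the core, was in 7 of the 29 (24.1%), against 0.303% of all genes. A match describes the letters in the reference strain only, and the sequence of A/J and SM/J was not read here. Printed below, on the strand of the gene and with core matches in capitals, are the neighbours Rsad2 (chr12:26456403-26456702, minus strand) and Cmpk2 (chr12:26468965-26469264, plus strand) of the substituted chromosome, the paralogs Ifit1 (chr19:34640639-34640938, plus strand) and Ifit3 (chr19:34583279-34583578, plus strand), whose array differences were unlike, and Isg15 (chr4:156200769-156201068, minus strand), whose matches overlap one another.
Rsad2: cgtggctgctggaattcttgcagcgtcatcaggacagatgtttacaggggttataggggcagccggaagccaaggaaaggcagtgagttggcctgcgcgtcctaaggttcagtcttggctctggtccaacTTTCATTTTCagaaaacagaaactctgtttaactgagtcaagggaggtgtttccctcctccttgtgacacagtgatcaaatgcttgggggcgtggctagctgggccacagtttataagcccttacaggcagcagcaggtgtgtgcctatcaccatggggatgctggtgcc
Cmpk2: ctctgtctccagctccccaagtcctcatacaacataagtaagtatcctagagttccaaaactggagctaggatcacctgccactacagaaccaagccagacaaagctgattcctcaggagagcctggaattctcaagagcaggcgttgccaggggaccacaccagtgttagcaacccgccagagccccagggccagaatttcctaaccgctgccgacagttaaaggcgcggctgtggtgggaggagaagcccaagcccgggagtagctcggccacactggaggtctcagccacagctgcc
Ifit1: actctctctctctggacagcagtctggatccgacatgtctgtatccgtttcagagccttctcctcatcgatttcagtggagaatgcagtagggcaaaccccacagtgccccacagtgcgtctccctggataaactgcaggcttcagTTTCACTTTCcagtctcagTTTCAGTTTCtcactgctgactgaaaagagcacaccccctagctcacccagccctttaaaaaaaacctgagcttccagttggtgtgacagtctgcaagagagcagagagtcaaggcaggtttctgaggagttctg
Ifit3: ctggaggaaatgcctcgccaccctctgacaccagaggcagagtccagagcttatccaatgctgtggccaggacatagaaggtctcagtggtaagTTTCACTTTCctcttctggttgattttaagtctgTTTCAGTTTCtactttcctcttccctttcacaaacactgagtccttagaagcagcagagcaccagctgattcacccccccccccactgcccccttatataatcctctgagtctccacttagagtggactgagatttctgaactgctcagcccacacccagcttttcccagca
Isg15: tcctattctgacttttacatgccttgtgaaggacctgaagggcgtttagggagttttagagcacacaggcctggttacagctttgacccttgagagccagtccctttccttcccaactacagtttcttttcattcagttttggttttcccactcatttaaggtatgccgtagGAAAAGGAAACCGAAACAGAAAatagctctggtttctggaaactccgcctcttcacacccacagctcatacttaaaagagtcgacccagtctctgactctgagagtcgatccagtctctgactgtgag

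The Rsad2 window held 1 core match, which began 120 bases before the start site, and the Cmpk2 window held none. In Ifit1 the matches began 104 and 85 bases before the start, and in Ifit3 they began 156 and 122 bases before it. The 3 matches of Isg15 began between 78 and 66 bases before the start and share bases with one another.

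**Figure D1:**
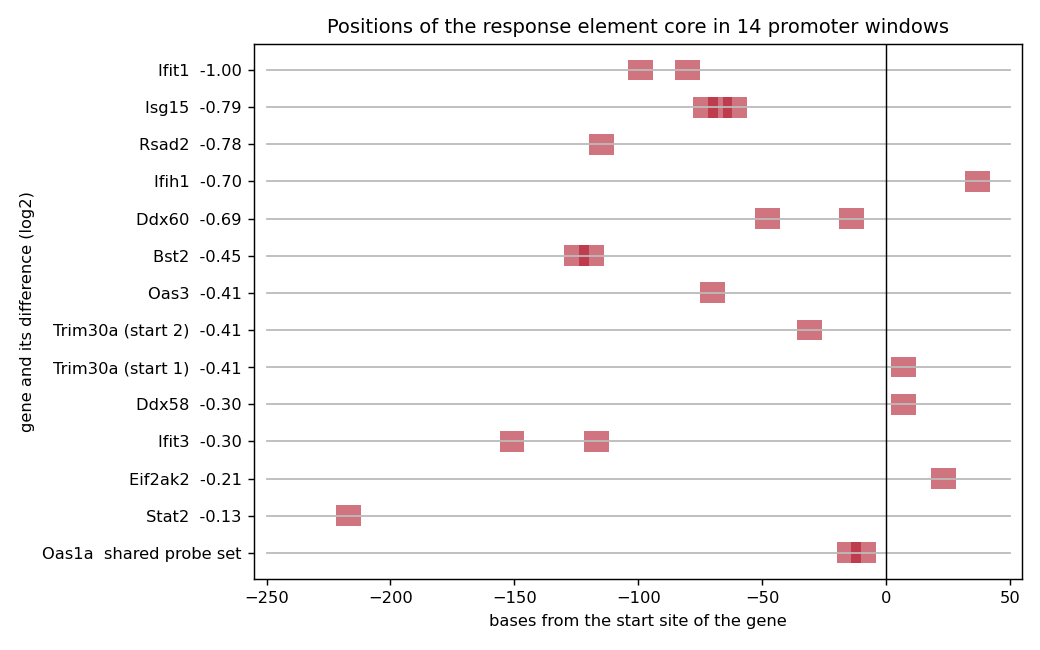
Positions of the response element core (red boxes) in the 14 member promoter windows that held it, in bases from the start site (vertical line), with the log2 difference of each gene beside its name. Most boxes lie within 156 bases upstream of the start, those of Ddx58, Eif2ak2, Ifih1 and 1 window of Trim30a lie just after it, and Stat2 has the most distant one, 222 bases upstream.

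The interferon-induced genes had lower levels in the A/J-12SM pool almost throughout. Of the 37 measured members, 34 (91.9%) were lower and 3 higher, while 46.3% of all genes were lower. Past the limit of 0.75 on the log2 scale, which the study used for its own selection and which equals a ratio below 0.595, 11 members (29.7%) were lower, against 4.28% of all genes. No member was above 0.75, where 2.86% of all genes lay. The median difference of the members was -0.51, that of all genes 0.03, and the members ranged from -2.30 for Ifi44l to 0.34 for Irf9.

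**Figure D2:**
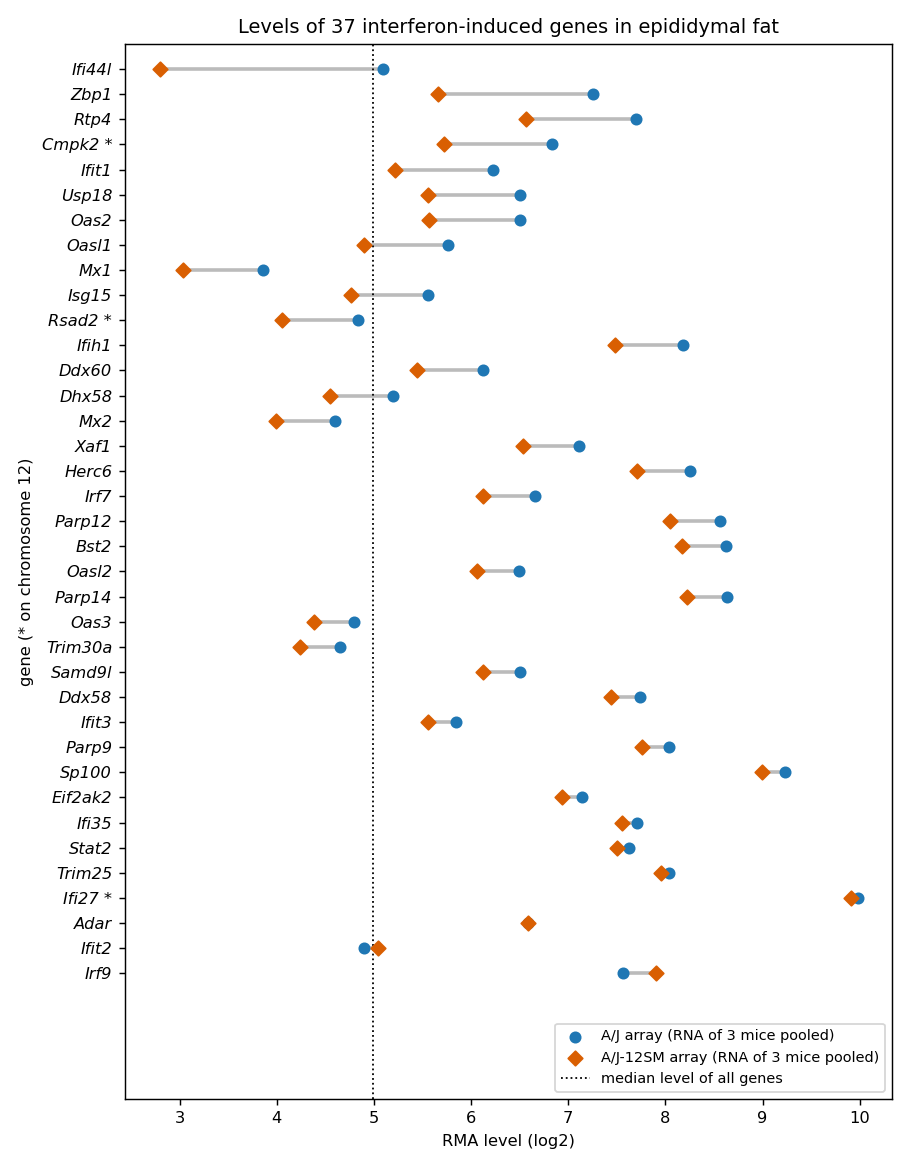
RMA level (log2) of each of the 37 members with the A/J pool (circles) and the A/J-12SM pool (diamonds), ordered by the difference, with the genes of chromosome 12 starred and the median level of all genes dotted. The diamond lies left of the circle for 34 genes, and the gap narrows from Ifi44l (5.10 and 2.80) at the top to Adar, whose levels coincide (6.59 on each array).

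The differences were not restricted to dim probe sets. Among the 24 members with a mean level of at least 6, 22 were lower and 5 were below -0.75 (Zbp1, Rtp4, Cmpk2, Usp18 and Oas2), with a median of -0.43. Of the 8198 genes at such levels, 2.79% were below -0.75 and 1.78% above 0.75, and their median was -0.02. Below a mean level of 6 there were 13 members with a median of -0.69, of which 6 were below -0.75, while 5.15% of the 13982 genes at such levels were below it and their median was 0.06. For levels near or under 4.99, the median of all genes on either array, signal was not separated from background, because no detection call was used. Such differences are of uncertain size. This applies to Mx1, Mx2, Rsad2, Oas3, Trim30a and Ifit2 on each array, and to Ifi44l, Isg15, Oasl1 and Dhx58 on the A/J-12SM array.

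**Figure D3:**
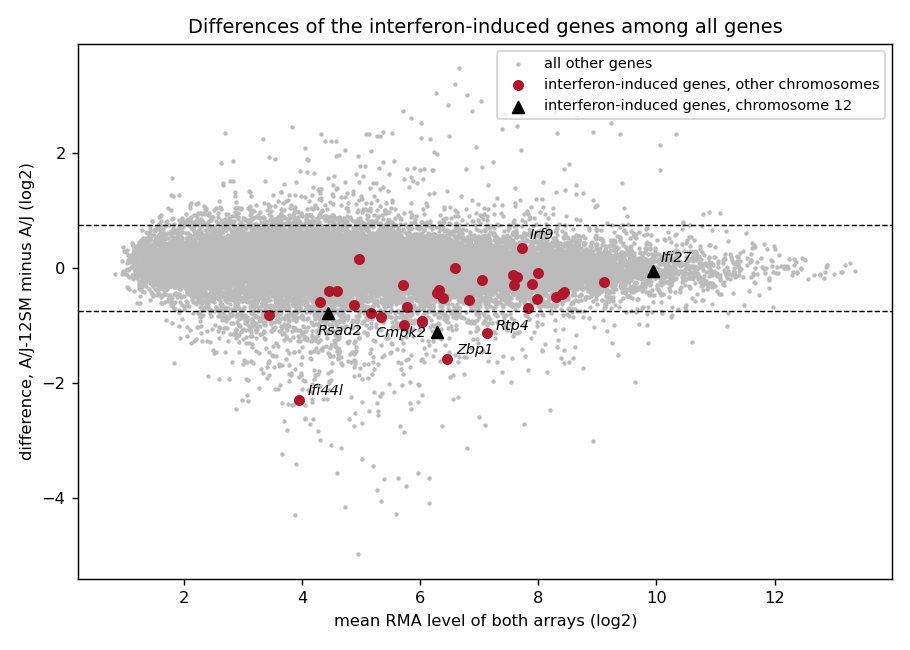
Difference (A/J-12SM minus A/J, log2) against the mean RMA level of both arrays for all genes (grey), members on other chromosomes (red) and members on chromosome 12 (black triangles), with dashed lines at -0.75 and 0.75. Of the members, 26 lie between the lines, mostly below 0, and 11 lie under the lower line, with Ifi44l (-2.30) and Zbp1 (-1.59) farthest below.

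Among the sensors of nucleic acids, the 3 helicases that detect viral RNA in the cytoplasm were all lower, by unequal amounts. Ifih1, which encodes MDA5, had a level of 8.18 with the A/J pool and 7.48 with the A/J-12SM pool, a difference of -0.70. Dhx58 (LGP2), a partner of MDA5, differed by -0.65, and Ddx58 (RIG-I) by -0.30. The related helicase Ddx60 was 6.13 and 5.44. Zbp1, a receptor for nucleic acids in the left-handed Z form that can trigger necroptosis, was 7.25 and 5.66, which is 3.01-fold higher on the A/J array. By contrast, Trim25, a ubiquitin ligase tied to RIG-I signalling, differed by -0.09, and Adar, the enzyme that edits adenosine in double-stranded RNA, by 0.00. The 7 genes of this group had a median of -0.65, and Zbp1 was the one below -0.75.

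The transcription factors that carry the signal had smaller differences. Irf9 was one of the 3 members with more signal in the A/J-12SM pool, 7.56 and 7.90, and Stat2, its partner, was 7.63 and 7.50. Irf7, which amplifies interferon production and is itself interferon-induced, was lower, with 6.66 and 6.13 (-0.53). None of the 3 was past 0.75, and their median was -0.13.

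The Ifit genes, whose products bind viral RNA and hold back its translation, lie close together on chromosome 19 and did not differ alike. Ifit1 had a level of 6.22 in A/J fat and 5.22 in A/J-12SM fat, a 2.004-fold difference. Ifit3, 51.9 kb from it, was 5.85 and 5.55, and Ifit2, 6.6 kb from Ifit3, was 4.90 and 5.05. Thus 1 of the 3 was past the limit and Ifit2 was slightly higher, at a level close to the median of all genes. The promoter windows of Ifit1 and Ifit3 printed above each hold 2 core matches, and the windows of Ifit2 hold none.

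The OAS family and the kinase PKR, most of them enzymes that double-stranded RNA activates, were lower in all 5 measured cases. Oas2, an oligoadenylate synthetase whose product activates RNase L, was 6.50 and 5.57 (-0.93), and its neighbour Oas3 was 4.80 and 4.38 (-0.41). The OAS-like gene Oasl1, known in mice to restrain translation of Irf7, was 5.76 and 4.90 (-0.86), and Oasl2, 10.9 kb away, was 6.50 and 6.06 (-0.44). In both neighbouring pairs 1 gene was below -0.75 and the other was not. Eif2ak2, the kinase PKR that arrests translation, differed by -0.21. The probe set shared by Oas1a and Oas1g was 5.35 and 5.54, that is 0.19 higher on the A/J-12SM array, whereas a probe set naming Oas1g alone was 4.65 and 3.77. These copies are close in sequence, and what each probe set measures is uncertain.

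The Mx GTPases, which trap viral nucleocapsids, had low levels on both arrays. Mx1 was 3.85 and 3.04 (-0.81) and Mx2 was 4.60 and 4.00 (-0.60).

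The 3 members tied to ISG15, a ubiquitin-like protein joined to other proteins during the interferon response, were all lower. Isg15 itself was 5.56 and 4.76 (-0.79). Usp18, the protease that takes ISG15 off again and also dampens signalling at the receptor, was 6.50 and 5.56 (-0.94). Herc6, the main ligase for ISG15 in mice, was 8.25 and 7.71 (-0.55). Their median of -0.79 was farther from 0 than that of the members as a whole.

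Rsad2 and Cmpk2 are neighbours on chromosome 12, the chromosome that differs between the strains by design. Rsad2 encodes viperin, a radical S-adenosylmethionine enzyme that turns CTP into a chain terminator of viral RNA synthesis, and Cmpk2 encodes a mitochondrial nucleotide kinase that supplies the pathway to CTP. Rsad2 (26442743 to 26456452 on GRCm38.p6) was 4.84 and 4.05 (-0.78), both under the median of all genes, so the size of its difference is uncertain. Cmpk2 (26469117 to 26479837) was 6.83 and 5.72, a 2.16-fold difference. The genes are divergent, with 12.7 kb between them, and both were below -0.75. Both were also among the genes that the study selected on these arrays, so their being past the limit is no independent evidence. The study then measured its selected genes by real-time RT-PCR in epididymal fat of both strains. Rsad2 and Cmpk2 were not among the genes it reported as significantly different there. Of the 5 measured genes on either side, only 2 had levels above the median of all genes. Rnf144a, a ubiquitin ligase gene and the nearest measured gene on the centromeric side, was 7.76 and 7.73, and Id2, which encodes an inhibitor of transcription factors, was 8.20 and 7.89. The other 8 were under that median on each array, where signal was not separated from background, so they say little about the surrounding region. Their differences were 0.60 for 4930480M12Rik, 0.53 for Sox11, 0.24 for Gm4166, 0.20 for Gm19340, 0.05 for Gm9866, -0.16 for Gm17746, -0.34 for Dcdc2c and -0.38 for Gm20187.

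Another member, Ifi27, also lies on chromosome 12, near its distal end (103434189 to 103440245), and its level was nearly equal in the strains. It encodes a small hydrophobic membrane protein, and its levels were 9.98 and 9.92 (-0.06). Among its 10 nearest measured neighbours, 2 were above 0.75, the liver-secreted serpins Serpina6 (1.72) and Serpina10 (0.87), and the median was 0.08. On the A/J array both serpins were under the median of all genes, and 5 of the 10 neighbours were under it on each array. Its paralog Ifi27l2b had levels under 3 on each array and differed by -0.28.

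**Figure D4:**
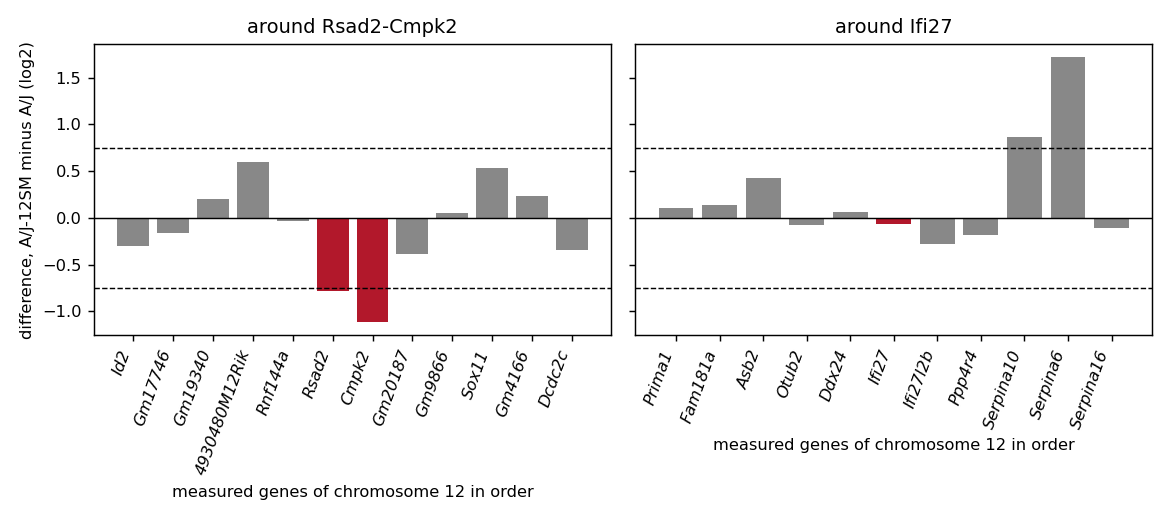
Differences (A/J-12SM minus A/J, log2) of Rsad2 and Cmpk2 (left) and of Ifi27 (right), in red, and of the 5 nearest measured genes on each side, in grey, in their order along chromosome 12, with dashed lines at -0.75 and 0.75. Rsad2 (-0.78) and Cmpk2 (-1.11) reach the lower line, and 8 of their 10 neighbours had levels under the median of all genes on each array, so that their short bars carry little information, while Ifi27 (-0.06) is close to 0.

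Set against the members elsewhere, the values of Rsad2 and Cmpk2 lay within the range of the others. The 34 members off chromosome 12 had a median of -0.48 and ranged from -2.30 to 0.34, and 9 of them (26.5%) were below -0.75, among 31 that were lower. Of all 21378 genes off chromosome 12, 4.23% were below -0.75 and 9889 were lower. Zbp1 and Rtp4, at levels above the median of all genes, differed more than Cmpk2. The 9 are spread over chromosomes 2, 3, 4, 5, 6, 16 and 19, where both strains carry the A/J sequence by design. With 1 array per strain, no test separates the genes of chromosome 12 from the rest. Whether sequence differences between A/J and SM/J lie under the probes of Rsad2 and Cmpk2 was not tested.

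The PARP genes, which encode enzymes of ADP-ribosylation, were all lower by similar amounts. Parp12 was 8.56 and 8.05 (-0.51), Parp14 was 8.64 and 8.22 (-0.42), and Parp9 was 8.04 and 7.75 (-0.28). A further probe set named for Parp9 together with its partner Dtx3l differed by -0.30. None was past 0.75.

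The remaining members act at membranes, in nuclear bodies or in cell death, or have a less settled role. Ifi44l was the most different member, 5.10 and 2.80, but the lower level is under the median of all genes. Rtp4, which encodes a chaperone of membrane receptors, was 7.70 and 6.56, 2.20-fold higher with the A/J pool. Bst2, or tetherin, which holds budding viruses on the cell surface, was 8.62 and 8.17 (-0.45). Xaf1, a promoter of apoptosis that binds XIAP, was 7.11 and 6.54 (-0.57), and Samd9l, a restriction factor of poxviruses, was 6.51 and 6.12 (-0.39). Trim30a, a tripartite motif protein, differed by -0.41 at low levels. Sp100, a component of nuclear bodies, differed by -0.24, and its 3 dimmer probe sets by -0.42, -0.66 and 0.14. Ifi35, a leucine zipper protein, differed by -0.16, and its dimmer probe set by 0.14.

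The receptors and kinases upstream of these genes differed little between the arrays. The receptor genes Ifnar1 (9.64 on each array) and Ifnar2 (9.81 and 9.77), and the kinase genes Jak1 (10.31 and 10.22) and Tyk2 (6.68 on each), were nearly equal. So were Jak2 (-0.18) and the receptor chains of interferon gamma, Ifngr1 (0.02) and Ifngr2 (-0.07). The median of these 7 genes was -0.04 and none was past 0.75. Of 16 type I interferon ligand genes, 11 were higher and 5 lower, with 1 below -0.75 (Ifna7, 4.00 and 3.22). Those with the highest mean level were Ifna1 (6.40 and 6.21), Ifna14 (5.77 and 5.55), Ifna4 (5.44 and 5.27) and Ifna15 (4.85 and 5.13), and Ifnb1 had a level of 2.23 and 1.90. The median level of the ligand genes, 2.79 in the A/J pool and 3.25 in the other, was under that of all genes, so their differences cannot be read as differences in ligand.

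Of 14 genes for sensors and adaptors that lead to interferon production, 11 were lower and 2 were below -0.75, with a median of -0.22. The endosomal RNA receptor Tlr3 differed by -0.21, the RIG-I adaptor Mavs by 0.19, the kinase Tbk1 by -0.24 and Myd88, adaptor of most Toll-like receptors, by -0.61. The DNA sensors Ifi204 (7.35 and 5.83) and Aim2 (5.74 and 4.76), named after their values were seen, were the 2 past the limit. The 10 measured brakes of signalling had a median of -0.06 with none past 0.75, among them the nucleotide hydrolase Samhd1 (-0.29), the phosphatase gene Ptpn11 (0.02), Pias1 (-0.18), an inhibitor of STAT proteins, and Rnf125 (0.32), a ubiquitin ligase that acts on RIG-I.

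**Figure D5:**
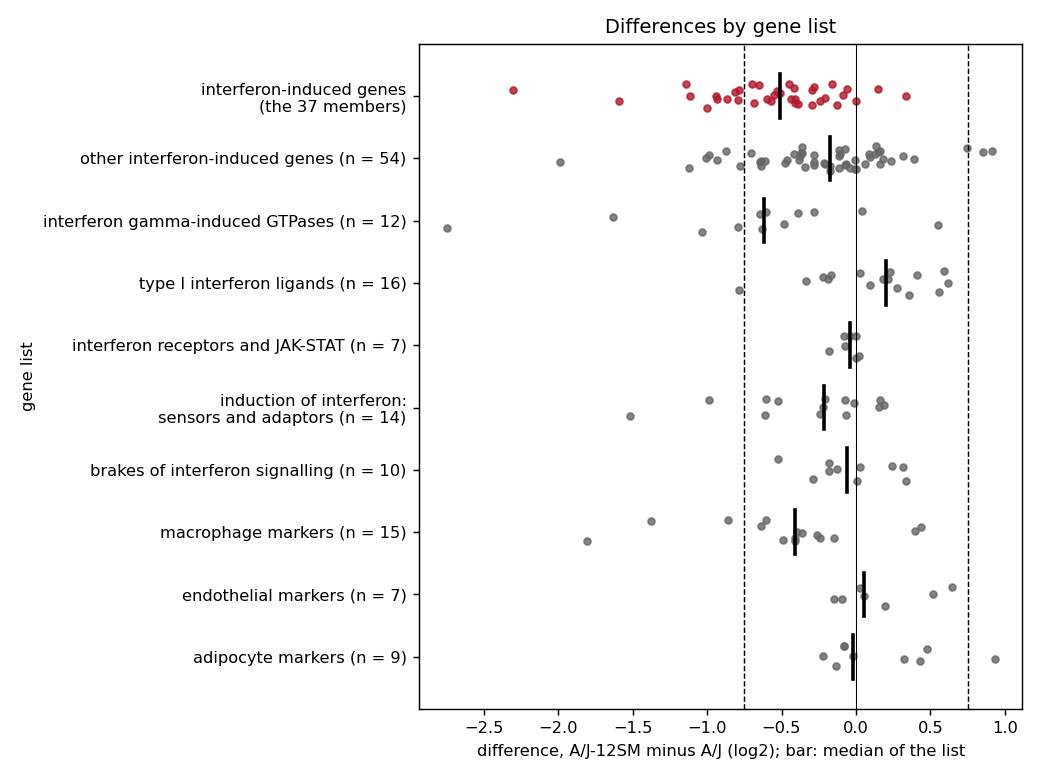
Differences (A/J-12SM minus A/J, log2) of the 37 members (red) and of the genes of other lists (grey), 1 point per gene, with a black bar at each median and dashed lines at -0.75 and 0.75. The median lies at -0.51 for the members, -0.62 for the interferon gamma-induced GTPases and -0.41 for the macrophage markers, and near 0 for receptors and kinases (-0.04).

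In a wider list of 54 other interferon-induced genes, 39 were lower, 7 were below -0.75 and 2 above 0.75, with a median of -0.17. The genes of this list with the highest mean level were Ly6e (0.09), Ifitm3 (-0.17), Lgals3bp (-0.64) and Lap3 (-0.18). Of 12 GTPases and related genes that interferon gamma induces, 10 were lower, 4 were below -0.75 and none was above 0.75, with a median of -0.62. Here Gbp7 differed by -0.28, Gbp9 by 0.04, Iigp1 by -1.64 and Gbp4 by -0.79. Genes induced by either interferon overlap, so a response to type I interferon cannot be told apart from one to interferon gamma by these levels.

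Most markers of macrophages were lower, as were most of the interferon-induced genes. Of 15 macrophage markers, 13 were lower and 3 were below -0.75 (Fcgr1 -1.81, Itgax -1.37 and Trem2 -0.86), with a median of -0.41. The 2 higher were Cd163 (0.44) and Mertk (0.40). Cd68 was 11.77 and 11.36 and Lyz2 11.04 and 10.78. Apart from Cd68 and Lyz2, the macrophage markers named here were chosen after their values were seen. The summed level of all 15 on the linear scale was 11030 for the A/J pool and 8335 for the A/J-12SM pool. The lowest mean level among these markers was 6.49, above the median of all genes. The part of these cells in the lower levels of the members was not tested, and in pooled bulk tissue fewer cells of a type cannot be told apart from less RNA per cell. Of 10 markers of plasmacytoid dendritic cells, the cells known for making much interferon, 6 were lower and 2 were below -0.75. The 10 had a median of -0.09, and the brightest, Tcf4 and Tlr7, differed by 0.46 and -0.53. Conventional dendritic cells had a median of 0.07 over 7 markers, with 1 below -0.75 (Cd209a -0.76) and 1 above 0.75 (Zbtb46, 5.11 and 5.92), while Ccr7 differed by 0.14. Neutrophils and other granulocytes had a median of -0.02 and a mean of -0.43 over 8 markers, of which 4 were lower and 4 higher. There were 2 below -0.75 (Csf3r -1.31 and S100a8, 5.81 and 2.81), while Elane differed by 0.43 and S100a9 by 0.60. T and NK cells had a median of -0.10 over 9 markers, of which 6 were lower and 1 was below -0.75 (Cd3g, 5.39 and 3.83). Nkg7 differed by -0.36 and Il2rb by -0.10, while the 3 higher were Cd3d (0.48), Cd8a (0.40) and Cd3e (0.12). B cells had a median of 0.24 over 6 markers, with 1 above 0.75 (Blk, 3.42 and 4.30), while Pax5 differed by 0.57 and Cd79a by -0.06. S100a8, S100a9, Cd3g, Cd3d, Cd8a, Cd3e, Zbtb46 and Blk were named after their values were seen. Apart from Cd209a, Tcf4 and a few others, levels in these lists were near or below the median of all genes.

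The tissue label held in that adipocyte markers were high on both arrays, with a median level of 11.41 and 11.84 over 9 genes, among them Fabp4 (12.45 and 12.43) and Lep (12.36 and 12.28). Of these adipocyte markers, 5 were lower, 4 were higher and 1 was above 0.75 (Adipoq, 10.32 and 11.26, named after its value was seen). Their median difference was -0.02 and their mean 0.18. The median of 7 endothelial markers was 0.05 (Cdh5 0.19 and Pecam1 0.03). The arrays also differed in markers of other tissues. Of 11 hepatocyte markers, 9 were above 0.75 (median 2.29, Alb 1.71 and Ahsg 2.62). Of the 11, 1 was lower (Hpx -0.66, named after its value was seen). All 9 measured markers of male germ cells were below -0.75 (median -3.33, Dnah8 -4.10 and Tnp2 -3.65). By contrast, 8 epididymis markers had a median of 0.06 (Lcn5 0.19 and Spag11a -0.13). The part of such tissue in the levels of the interferon-induced genes was not tested.

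Among the members with a promoter window, those with and without the response element core had similar differences. The 12 measured members with the core had a median of -0.43 and ranged from -1.003 to -0.13, with 3 below -0.75 (Ifit1, Isg15 and Rsad2). The 15 without it had a median of -0.44, ranged from -2.30 to 0.34 and also had 3 below -0.75. The other 10 measured members had no window in the table, and they include 5 of the 11 below -0.75 and had a median of -0.73, so the comparison leaves out much of the group.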

How the data were processed

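Levels were measured on the Affymetrix Mouse Gene ST 2.0 array, from 100 ng of pooled RNA per strain. The authors made the deposited log2 values with the RMA-sketch algorithm of Affymetrix Expression Console 1.3.0, which equalizes the distributions of the arrays, so a shift common to most genes would be removed. The build of the probe annotation was not given in the sources used here. Of 41345 probe sets, 23521 named 1 gene in the platform annotation (symbols updated by gene identifier), 1820 named several and were left out, and 16004 named none; all sample columns were used (0 left out). No detection call was used, and the number of arrays limits the precision.

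The members, lists and tests were chosen with earlier results of these data known. Differences were A/J-12SM minus A/J, counted past 0.75. All members are named. So are the genes of a pathway list with up to 8 measured genes, otherwise its 4 with the highest mean level, the top 2 of each marker list and the 5 neighbours of the chromosome 12 genes; others are marked. For ligands, sensors, promoters and the neighbours of Ifi27, added names were chosen after their values were seen. Positions and promoters are from RefSeq (GRCm38.p6). Alternatives were centring, loess (span 0.3), quantile scaling, other probe set choices, thresholds of 0.5 and 1.0, minimum mean levels of 5 and 6, the mean, and a longer motif. Scripts were tested on simulated data. Python 3.11.15, pandas 2.3.3, NumPy 2.4.6, statsmodels 0.14.6 and matplotlib 3.10.9 were used.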

Additional observations from a re-analysis of the deposited data

How the results depend on the processing

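No paired analysis was possible because each strain has 1 array. Under centring, loess and quantile scaling, and under the 3 other choices of probe set, 11 members were below -0.75 and none above, and each of the 37 measured members stayed on its side of 0.75. The median of the members ran from -0.56 (as a mean) to -0.43 (mean level of at least 6). The count below the limit followed the limit itself. It was 19 at a threshold of 0.5, where 8.58% of all genes lay that low, and 5 at 1.0, where 2.34% did. It was also 5 among members with a mean level of at least 6. Some list medians near 0 changed sign. That of the conventional dendritic cell markers went from 0.07 to -0.037 when probe sets naming several genes were kept, and that of the brakes from -0.06 to 0.015 there and with the mean over probe sets. The receptors and kinases went from -0.04 to 0.016 under quantile scaling, the epididymis markers from 0.06 to -0.028 under loess, and the adipocyte markers from -0.02 to 0.0043 under loess and 0.016 with the mean over probe sets. Adar (0.00098) was at -0.027 after centring. The longer response element was found in 7 members in place of 13. Rsad2 (-0.78) and Isg15 (-0.79) lay closest to the limit, and without replicates their side of it has no error attached.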

Other observations

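Among the 54 other interferon-induced genes, the 7 below -0.75 were Cxcl10 (6.82 with the A/J pool and 4.83 with the A/J-12SM pool), a chemokine for T cells, Ms4a6d (-1.12), Trim30d, Slfn2, Phf11b, Oas1g and Phf11d. Trim30d and Oas1g had levels under 5 on both arrays, and Cxcl10 on the A/J-12SM array. Slfn2, a schlafen family gene, differed by -0.99, Phf11b by -0.93 and Phf11d by -0.78. The 2 above 0.75, Ms4a4c (0.92) and Apol9b (0.85), also had levels under 5 on both arrays. The immunoproteasome genes Psmb8 (-0.64) and Psmb9 (-0.61) and the peptide transporter gene Tap1 (-0.37) were lower as well. Of the GTPases that interferon gamma induces, the ubiquitin-like gene Ubd on the same list had the lowest difference (-2.75) and Gbp6 the highest (0.55), the latter at levels under 3. All genes in this paragraph were named after their values were seen.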
